A study of Danio rerio with 96 samples.

Results

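Cartilage matrix and chondrocyte genes were followed in zebrafish larvae exposed to X-rays (XR), folic acid (FA) or both. The genes were 37 symbols for cartilage collagens, proteoglycans, matrilins, secreted or membrane proteins of chondrocytes, and transcription factors and ligands of the chondrocyte lineage. They matched 39 of the 25907 Ensembl gene IDs in the count table. For 25 symbols the name was identical. The other 12 were found through a name without its copy letter, so those genes are given here by the shared name in capitals, and which zebrafish copy an ID is was not resolved. RNA-seq was carried out on 96 single whole larvae of an albino line at 36, 37, 60 and 84 h post fertilisation (hpf), with 6 larvae in each of 4 groups at each time. Larvae named Cont received neither agent, those named XR received 8 Gy at 36 hpf, those named FA were kept in 200 μM FA from 35 hpf, and those named FA + XR received both. The groups were raised in separate wells, and the plates holding XR and FA + XR went into the irradiation apparatus. A difference between wells or plates therefore cannot be told apart from a treatment. Whether larvae collected at 36 hpf were taken before or after the exposure is not stated in the sources used here. Age cannot be told apart from any batch of library preparation. In the deposited count columns all Cont and XR libraries come before all FA and FA + XR libraries. What set that order is not stated, so FA cannot be told apart from a batch that follows it.

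The larval jaw skeleton of zebrafish is cartilage that forms from cranial neural crest cells in the pharyngeal arches. Sox9, with Sox5 and Sox6, switches on the matrix genes of these cells. Type II and type XI collagens make the fibrils, type IX collagen sits on their surface, aggrecan held on hyaluronan by link proteins fills the space between them, and matrilins join fibrils to proteoglycans. Type X collagen and Runx2 belong to hypertrophic chondrocytes, and in fish type X collagen is also made by bone cells. Several of these genes, type II collagen among them, are also made by the notochord and the otic capsule.

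Library totals ran from 243126 to 16470291 counts, and 13 of the 96 libraries had a total below 50% of the median for that age, with 6 of these at 37 hpf, 4 at 60 hpf, 3 at 84 hpf and 0 at 36 hpf. The FA + XR library of 243126 counts at 37 hpf stood apart, with *matn1* at 31.6 CPM (16 counts) and *mia* at 0. CPM are counts scaled to a common library total, after each total is multiplied by a normalisation factor (TMM). In this library the factor lowered the levels, and *matn1* would be above 31.6 without it. Differential expression was tested with edgeR's quasi-likelihood test over all genes whose mean count reached 2.5, and a gene was called at an adjusted p below 10%. In whole larvae, fewer cells of a type and less RNA per cell cannot be told apart.

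Of the 39 genes, 30 passed the filter at 60 hpf, at 84 hpf and in the fit of all 96 libraries, and 28 passed at 36 and 37 hpf, where *acana* (aggrecan) and *ucmaa* (a secreted Gla protein of cartilage) fell short. The 9 that passed in no fit were close to 0 throughout. They included both Indian hedgehog genes, *ihha* with 19 counts over all 96 libraries and *ihhb* with 18. *RUNX2* had 2 counts and *runx2b* had 21. The second aggrecan gene, *acanb*, had 5 counts. *susd5* had 17 counts, and its highest level, 8.68 CPM, came from 6 counts in 1 library. The remaining 3 were second IDs of *COL10A1* (ENSDARG00000101535, 89 counts), *SOX9* (ENSDARG00000003293, 60 counts) and *HAPLN1* (ENSDARG00000102395, 44 counts). At this depth these 9 genes could not be compared.

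To ask how the cartilage genes change as the jaw forms, ages were compared within Cont. Between 37 and 60 hpf, 21 of the 30 tested members were higher and 3 were lower, while 16.5% of all 15699 genes tested were higher and 14.3% lower. The median log2 fold change was 1.41 for the members and 0.08 for all genes. Between 60 and 84 hpf, 7 members rose and 2 fell, against 4.41% and 2.8% of all genes. Between 36 and 84 hpf, 19 rose and 4 fell, against 25.3% and 21.5%. The 19 include *acana* and *ucmaa*, and the 21 include *acana*. These genes passed the filter at 60 and 84 hpf but not at 36 or 37 hpf. Their entry into this fit rested on the later ages, so their rise is not independent of the filter. No member passed the test between 36 and 37 hpf, where 0% of all genes did by edgeR and 48 genes, none of them a member, did by DESeq2. There, 5 of 30 members (16.7%), all of them lower at 37 hpf, had an unadjusted p under 0.05, against 8.22% of all genes. In all, 29 of the 30 members passed at least 1 of these tests, the exception being *sox5*, while 52.8% of all genes did. Those 29 include *col11a1b*, which was called as lower between 37 and 60 hpf (-0.54, SE 0.24, adjusted p = 0.0874 by edgeR) but in only 1 of 6 alternatives.

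**Figure D1:**
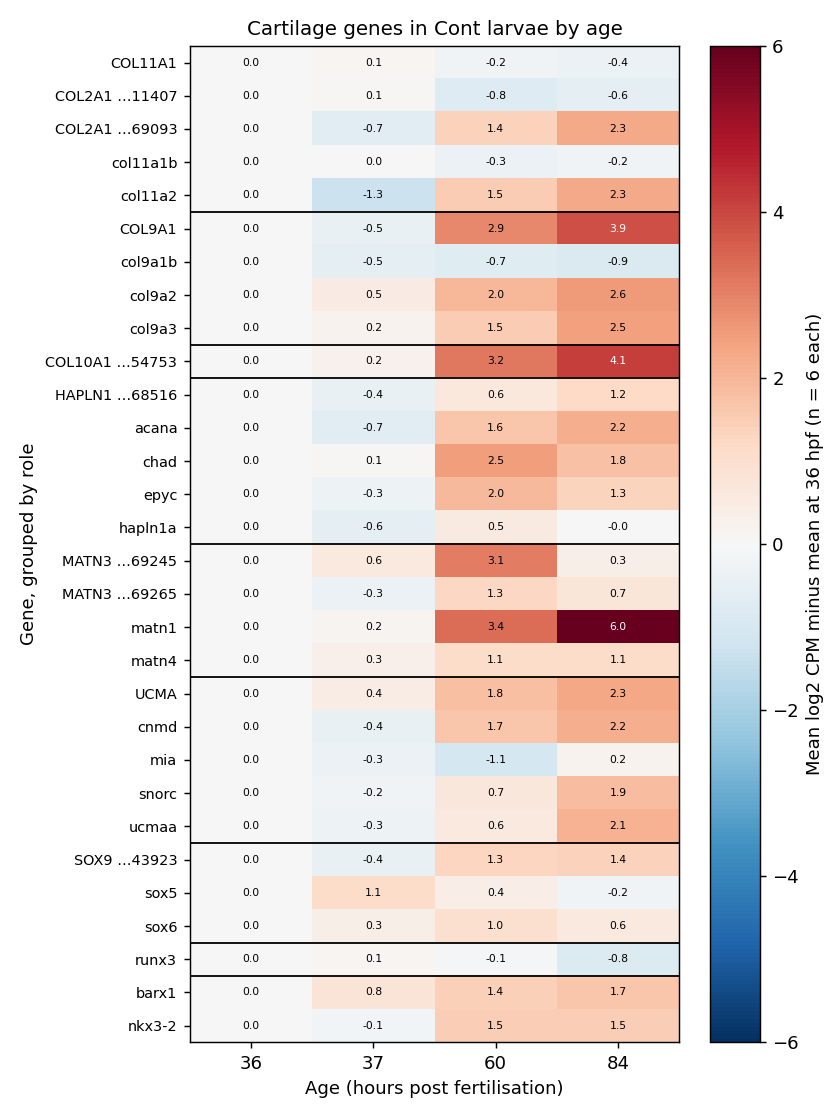
Heat map of the 30 tested members in Cont at 36, 37, 60 and 84 hpf (x axis). Each cell gives the mean log2 CPM of 6 larvae less the mean at 36 hpf, and horizontal lines separate roles (fibrillar, type IX and type X collagens, proteoglycans, matrilins, secreted or membrane proteins, Sox, Runx and arch factors). *matn1* shows the largest difference, 5.99 at 84 hpf, and *COL2A1* ENSDARG00000011407, *COL11A1*, *col11a1b*, *col9a1b* and *runx3* are below 0 at both 60 and 84 hpf.

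*matn1*, which encodes the cartilage matrilin, changed most among the members between 36 and 84 hpf. In Cont its level was 3.07, 3.87, 4.25, 4.85, 5.87 and 6.36 CPM in the 6 larvae at 36 hpf and 287, 309, 328, 335, 339 and 339 CPM at 84 hpf. The 2 ages did not overlap, and the log2 fold change was 6.03 (SE 0.44, adjusted p = 1.52e-22 by edgeR, exact permutation p = 0.00216, the smallest that 6 against 6 libraries can give). At 60 hpf the larvae of a group were far apart, from 9.48 to 140 CPM in Cont and from 17.6 to 120 CPM in FA. The lowest of these Cont larvae lay below the highest at 37 hpf, 12 CPM. The ratio of mean CPM at 84 hpf to that at 36 hpf was 68.6 (Cont), 80.5 (XR), 72.8 (FA) and 56.7 (FA + XR).

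The collagens moved in both directions. The *COL2A1* gene ENSDARG00000069093 rose from 22.3 ± 11 CPM (SD, n = 6) at 36 hpf to 102 ± 9.8 CPM at 84 hpf in Cont, a log2 fold change of 2.12 (SE 0.22, adjusted p = 2.7e-14 by edgeR). The *COL2A1* gene ENSDARG00000011407 fell instead, from 70.5 ± 23 to 45.7 ± 5.5 CPM, with a log2 fold change of -0.69 (SE 0.22, adjusted p = 0.00801 by edgeR). Its fall lay between 37 and 60 hpf, where the larvae ran from 52.5 to 99.1 and from 27.1 to 48.6 CPM without overlap. Both encode the main fibril collagen of cartilage, and the test of each age was made gene by gene, so the difference between them was not tested.

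Type IX collagen genes rose with 1 exception. *COL9A1* went from 3.65 ± 2.29 to 53.3 ± 11.8 CPM between 36 and 84 hpf in Cont, 3.86 on the log2 scale (SE 0.34). *col9a2* and *col9a3* rose by 2.46 (SE 0.28) and 2.35 (SE 0.28). *col9a1b* fell by 0.97 (SE 0.44, adjusted p = 0.0683 by edgeR), from 7.84 ± 2.33 to 4.18 ± 1.51 CPM. Its log2 fold change lay between -0.98 and -0.78 in all 6 alternatives, and the call was lost in 4 of them (adjusted p from 0.0641 to 0.153). Among the type XI genes, *col11a2* rose from 4.83 ± 2.31 to 23 ± 3.2 CPM. *COL11A1* fell by 0.48 (SE 0.21, adjusted p = 0.0577 by edgeR), and this call was likewise lost in 4 of 6 alternatives. With size factors of the RLE kind the median of all genes between 36 and 84 hpf moved from 0.09 to 0.27, and the fall of *COL11A1* was then 0.29 on the log2 scale with an adjusted p of 0.252. *COL10A1* (ENSDARG00000054753) rose from 4.64 ± 1.98 to 84.3 ± 11.4 CPM, 4.15 on the log2 scale (SE 0.33), and no larva at 84 hpf was below the highest at 36 hpf.

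**Figure D2:**
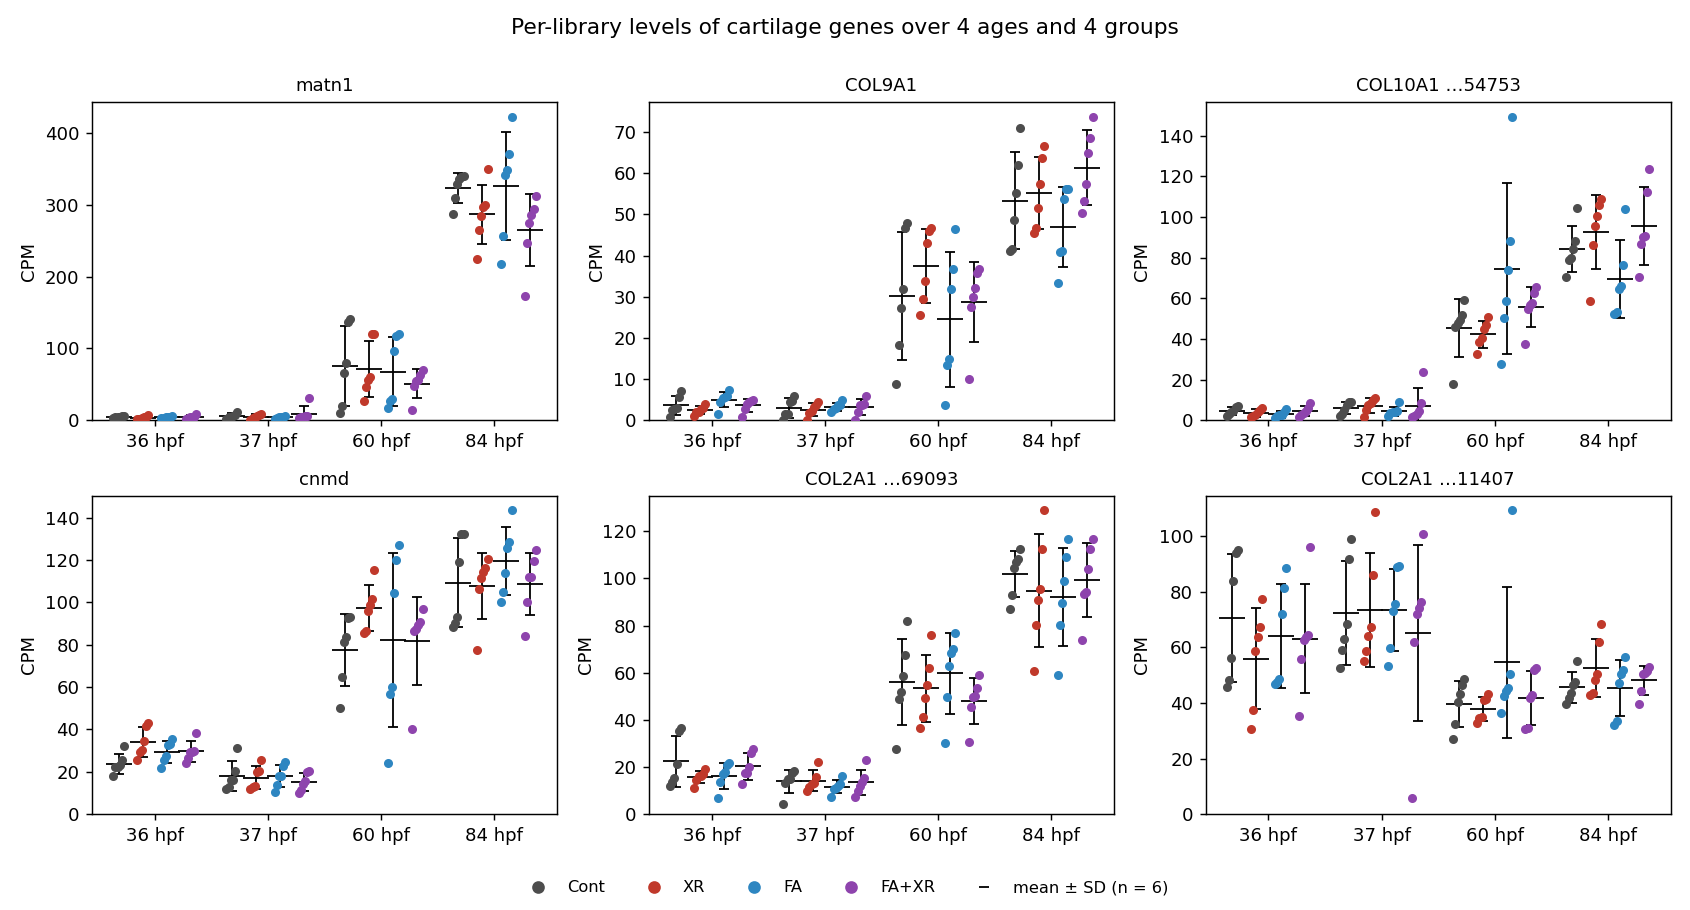
Level of 6 members in each larva, in CPM on linear axes that start at 0, at 36, 37, 60 and 84 hpf for Cont, XR, FA and FA + XR. Points are libraries, and horizontal marks with bars are means ± SD (n = 6). Group means of *matn1* rise from 51 to 75.3 CPM at 60 hpf to 265 to 326 CPM at 84 hpf in all 4 groups, and *COL2A1* ENSDARG00000011407 is the panel with lower levels at the later ages.

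Among the proteoglycans and link proteins, *acana*, *epyc*, *hapln1a*, *HAPLN1* and *chad* all rose between 37 and 60 hpf, and *epyc* was the single one called between 60 and 84 hpf. *acana* had 0 counts in all 6 Cont larvae at 37 hpf, 58 at 60 hpf and 108 at 84 hpf. It was not absent at 36 hpf, where Cont averaged 0.46 CPM, and the ratio of mean CPM at 84 hpf to that at 36 hpf was 7.16. The Cont libraries of 648296 and 761346 counts at 37 hpf were among those of low depth. Set against a floor of 3 counts over the 6 larvae of 37 hpf, *acana* was at least 12.5-fold higher at 60 hpf by raw library totals. At 84 hpf it was at least 22.5-fold higher by the same totals. These folds left out the TMM factors used for CPM. The pooled level at 84 hpf was 4.08 by raw totals, against a mean of 3.30 CPM with TMM factors. The folds therefore need not hold as lower bounds for CPM, for which none was computed. In the other groups the ratio of mean CPM at 60 hpf to that at 37 hpf was 10.8 (XR) and 3.83 (FA). FA + XR, like Cont, averaged 0 at 37 hpf and has no such ratio. *epyc*, a small leucine-rich proteoglycan of growing cartilage, went from 12.1 ± 5.3 CPM at 37 hpf to 57.4 ± 11.5 CPM at 60 hpf and back to 36.8 ± 5.7 CPM at 84 hpf. The fall after 60 hpf was 0.62 on the log2 scale (SE 0.21, adjusted p = 0.0596 by edgeR), and the larvae of the 2 ages overlapped. *hapln1a*, a link protein gene, rose between 37 and 60 hpf by 0.96 (SE 0.22) and had a log2 fold change of -0.53 (SE 0.21, adjusted p = 0.138 by edgeR) after that. The *HAPLN1* gene ENSDARG00000068516 rose by 1.03 (SE 0.25) from 36 to 84 hpf. *chad*, which encodes the cell-binding leucine-rich protein chondroadherin, rose by 2.17 (SE 0.64) over the same span from a low level, 0.73 ± 0.74 CPM.

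The 4 tested matrilin genes differed in time course. *matn4* rose to 60 hpf and then did not pass, with 55.9 ± 8.5 CPM at 37 hpf, 100.1 ± 24.9 at 60 hpf and 97.6 ± 15.1 at 84 hpf in Cont. The *MATN3* gene ENSDARG00000069245 had its highest Cont levels at 60 hpf. Its larvae measured 3.12, 5.87, 5.89, 6.52, 9.46 and 9.83 CPM at 37 hpf, 23.2, 36.6, 42.6, 42.9, 46.5 and 47 at 60 hpf, and 4.65, 4.76, 5.29, 5.67, 5.81 and 6.57 at 84 hpf. The larvae of 60 hpf overlapped neither of the other ages. The rise was 2.54 on the log2 scale (SE 0.39, adjusted p = 1.21e-07) and the fall 2.85 (log2 fold change -2.85, SE 0.36, adjusted p = 5.59e-10), both by edgeR. The other *MATN3* gene, ENSDARG00000069265, also rose to 60 hpf (2.15, SE 0.63), and its log2 fold change from 60 to 84 hpf, -0.71 (SE 0.49, adjusted p = 0.553 by edgeR), did not pass.

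Genes for secreted or membrane proteins of chondrocytes mostly rose. *cnmd* encodes chondromodulin, whose secreted part inhibits blood vessel growth, and it went from 23.9 ± 4.7 CPM at 36 hpf to 77.6 ± 16.9 at 60 hpf and 109 ± 21 at 84 hpf. *snorc*, a transmembrane proteoglycan known in mouse chondrocytes, rose in both late intervals, by 0.91 (SE 0.32) to 60 hpf and by 1.05 (SE 0.28) to 84 hpf. *UCMA* rose by 2.22 (SE 0.30) and *ucmaa* by 2.16 (SE 0.77) between 36 and 84 hpf. *mia*, a secreted protein of chondrocytes, dipped. It was 21.6 ± 11 CPM at 37 hpf, 11.9 ± 4.4 at 60 hpf and 27.8 ± 1.7 at 84 hpf, where every larva, at 25.1 CPM or more, lay above the highest of 60 hpf, 17.4 CPM.

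Of the 6 tested transcription factor genes, 3 rose between 36 and 84 hpf, 1 fell and 2 were not called. *SOX9* ENSDARG00000043923 rose by 1.06 (SE 0.42, adjusted p = 0.034 by edgeR) between 36 and 84 hpf. Its Cont level went from 2.99 ± 2.07 to 6.78 ± 1.61 CPM. The other *SOX9* ID, with 60 counts over all 96 libraries, was not tested, and which copy each ID is was not resolved. *sox6* rose by 0.57 between 37 and 60 hpf with an adjusted p of 0.0993 by edgeR, next to the threshold, and *sox5* passed nowhere. *runx3* fell by 0.98 (SE 0.33) between 36 and 84 hpf. *barx1*, which acts in prechondrogenic condensations of the arches, and *nkx3-2*, a jaw joint gene, rose by 1.53 (SE 0.38) and 1.498 (SE 0.32).

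Other lists of genes, chosen with earlier results of these data known, gave the setting. Between 36 and 84 hpf in Cont, 25.3% of all genes rose and 21.5% fell, and the lists were not tested against these shares. Over this span 3 of the 14 tested notochord IDs rose and 7 fell, with a median log2 fold change of -0.80. *epyc* is in that list as well as among the members. Of 16 tested IDs for other matrix of cartilage and perichondrium, 4 rose and 4 fell. Of 28 for proteoglycan synthesis and collagen secretion, 3 rose and 10 fell. The list of hedgehog, PTHrP and FGF growth control had 7 higher and 1 lower of 21, and that of neural crest and arch patterning had 11 higher and 7 lower of 39. Among bone genes 6 rose and 4 fell of 21, and *ifitm5*, an osteoblast gene, rose by 6.21 on the log2 scale (SE 0.55).

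To ask whether irradiation or FA changed the cartilage genes, the 4 groups were compared at each age in 7 ways. These were XR vs. Cont, FA + XR vs. FA, the mean of both (irradiated vs. unirradiated), FA + XR vs. Cont, FA vs. Cont, XR vs. FA + XR, and the interaction of FA with XR. Comparisons that hold the same libraries are not independent. At 36 hpf no member passed in any of the 7. The share of all genes called was, in the same order, 0.0207%, 0%, 0%, 0.0553%, 0.0138%, 0% and 0%. Of 196 member tests, 10 (5.1%) had an unadjusted p under 0.05, against 6.44% over all genes, and DESeq2 called 0 members.

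At 37 hpf, 1 h after irradiation, no member passed either. The shares of all genes called were 0.104%, 0.118%, 0.25%, 0.0974%, 0%, 0% and 0%. Unadjusted p under 0.05 was found in 14 of 196 member tests (7.14%), against 4.28% over all genes. DESeq2 called 1 member, *barx1* in XR vs. Cont (adjusted p = 0.0881), where edgeR gave a log2 fold change of -2.07 (SE 0.56, adjusted p = 0.325). For *barx1* the sign was opposite in FA + XR vs. FA, at 1.17 (SE 0.53, adjusted p = 0.995 by edgeR). In irradiated vs. unirradiated larvae *barx1* was at -0.45 (SE 0.39, adjusted p = 0.999 by edgeR).

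At 60 hpf, 24 h after irradiation, *snorc* was the single member called by edgeR. No member passed in XR vs. Cont (0.404% of all genes called), FA + XR vs. Cont (0.276%), FA vs. Cont (1.45%), XR vs. FA + XR (0%) or the interaction (0%). *snorc* passed in FA + XR vs. FA, where 1.43% of all genes did, and in irradiated vs. unirradiated, where 1.67% did. DESeq2 called 2 members in FA + XR vs. FA and 1 in irradiated vs. unirradiated, all of them lower. Over the 7 comparisons 18 of 210 member tests (8.57%) had an unadjusted p under 0.05, against 7.8% over all genes. In the 5 comparisons with 0 by edgeR, DESeq2 called 2 members in FA vs. Cont, *MATN3* ENSDARG00000069265 (0.88, SE 0.32, edgeR adjusted p = 0.206) and *COL10A1* (0.74, SE 0.25, edgeR adjusted p = 0.165), and 0 in the other 4.

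*snorc* at 60 hpf measured 6.09, 9.19, 9.98, 13.4, 19.9 and 22.9 CPM in Cont and 5.43, 9.65, 9.82, 10.9, 13.1 and 13.6 in XR. In FA it was 3.63, 15.7, 18.2, 19.5, 19.9 and 21 CPM, and in FA + XR 4.04, 4.64, 6.90, 9.23, 9.26 and 10.3. All FA larvae but the lowest, which rests on 3 counts, were above every FA + XR larva. The log2 fold change in FA + XR vs. FA was -1.20 (SE 0.30, adjusted p = 0.0607 by edgeR, exact permutation p = 0.0563). In irradiated vs. unirradiated it was -0.82 (SE 0.21, adjusted p = 0.0434 by edgeR), and in XR vs. Cont alone it was not called. The log2 fold change in XR vs. Cont ran from -0.55 to -0.21 in the 24 fits that left out 1 library (adjusted p from 0.861 to 0.999 by edgeR). The pooled value is the mean of FA + XR vs. FA and this smaller one.

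The call of *snorc* in FA + XR vs. FA was lost at a threshold of 5%, when only the 12 libraries compared were fitted (adjusted p = 0.26), and when any of 6 libraries was left out. Those were the FA libraries of 5295573 (adjusted p = 0.168) and 2586967 counts (0.109), and the FA + XR libraries of 3162596 (0.169), 3792315 (0.128), 3565072 (0.124) and 16470291 counts (0.102), all by edgeR. The pooled call was lost without the Cont library of 7902422 counts, with an adjusted p of 0.131 by edgeR.

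Some genes of other cell types were also called at 60 hpf. Of all genes, 1.67% were called in irradiated vs. unirradiated, 1.43% in FA + XR vs. FA and 1.45% in FA vs. Cont. Of 12 tested muscle IDs 2 were higher and 0 lower in irradiated vs. unirradiated larvae, both of them *ACTA1*, the skeletal muscle actin, at 0.52 (SE 0.11) for ENSDARG00000055618 and 0.55 (SE 0.13) for ENSDARG00000036371. In FA + XR vs. FA 0 were higher and 1 was lower, the calcium-binding *pvalb1*, at -0.68 (SE 0.19). In FA vs. Cont 2 of 12 muscle IDs and 2 of 6 erythrocyte IDs were higher, among them *hbae3*, a haemoglobin gene, at 0.83 (SE 0.23). The summed level of the muscle list ran from 33283 to 51632 CPM for Cont, 42837 to 50704 for XR, 42618 to 86446 for FA and 41391 to 51156 for FA + XR. That of the erythrocyte list ran from 7079 to 14830 CPM, 6149 to 10532, 8874 to 28173 and 7822 to 15086 in the same order, so that FA held the highest larva for both lists. The part of these cells in the values of *snorc* was not tested.

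At 84 hpf, 48 h after irradiation, *hapln1a* was higher and *snorc* lower in irradiated vs. unirradiated larvae, the 2 members called of 30, while 4.32% of all genes were. The median log2 fold change was 0.08 over the members and 0.01 over all genes. No member passed in XR vs. Cont (1.69% of all genes) or in FA + XR vs. FA (1.04%), where 3 members (10%, against 8.94% of all genes) and 7 members (23.3%, against 9.18%) had an unadjusted p under 0.05. DESeq2 called *hapln1a* (adjusted p = 0.0872) and *snorc* (adjusted p = 0.0719) in XR vs. Cont and 0 members in FA + XR vs. FA. Over the 7 comparisons 30 of 210 member tests (14.3%) had an unadjusted p under 0.05, against 7.53% over all genes.

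**Figure D3:**
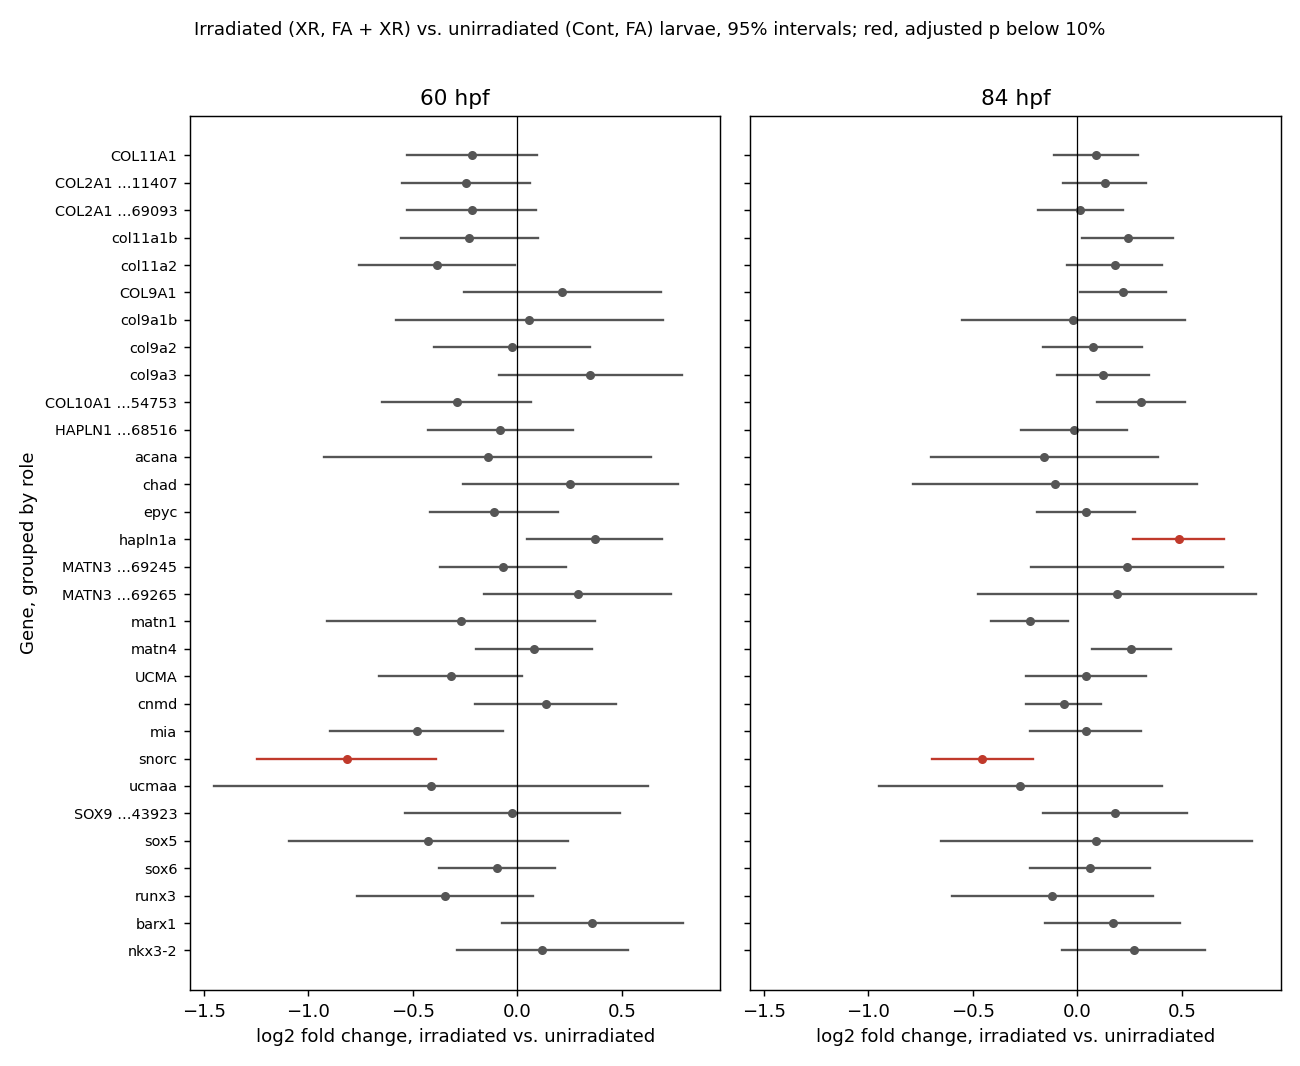
Log2 fold changes of the 30 tested members in irradiated (XR and FA + XR) vs. unirradiated (Cont and FA) larvae at 60 hpf (left) and 84 hpf (right). Points are estimates, lines are 95% intervals, and red marks an adjusted p below 10%. *snorc* is red at both ages, at -0.82 and -0.45, and *hapln1a* is red at 84 hpf, at 0.48.

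*hapln1a* at 84 hpf measured 26.4, 31, 31.1, 32.5, 35.8 and 40.6 CPM in Cont and 39, 39.8, 40.7, 42.7, 47.1 and 57.7 in XR. It measured 26, 31, 33.4, 36.6, 40.2 and 49.5 CPM in FA and 39.2, 42.5, 51.3, 52.9, 60.7 and 62 in FA + XR. The highest unirradiated larvae overlapped the lowest irradiated ones in both pairs. The pooled log2 fold change was 0.48 (SE 0.11, adjusted p = 0.00446 by edgeR), made up of 0.46 (SE 0.15) without FA and 0.51 (SE 0.15) with FA. FA + XR vs. Cont, where 1.92% of all genes were called, gave 0.68 (SE 0.15, adjusted p = 0.00666 by edgeR, exact permutation p = 0.00433). Both calls held in all 24 fits that left out 1 library.

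*snorc* at 84 hpf measured 23, 26.7, 28.7, 29.97, 31.5 and 33.3 CPM in Cont and 16.2, 16.5, 18.8, 19.5, 21.4 and 24.0 in XR. In FA it was 21.5, 21.7, 26.1, 27.6, 28.9 and 36.1 CPM and in FA + XR 14.5, 14.7, 21.9, 23.1, 25.1 and 28.4. Cont and XR overlapped by 1 larva each, and FA and FA + XR overlapped more widely. The pooled log2 fold change was -0.45 (SE 0.12, adjusted p = 0.0221 by edgeR). It was -0.56 (SE 0.17, adjusted p = 0.101 by edgeR, exact permutation p = 0.00433) in XR vs. Cont, which was called in 9 of 24 fits without 1 library (adjusted p from 0.0718 to 0.238), and -0.35 (SE 0.17, adjusted p = 0.537 by edgeR) in FA + XR vs. FA. The pooled call held in all 24 fits without 1 library.

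**Figure D4:**
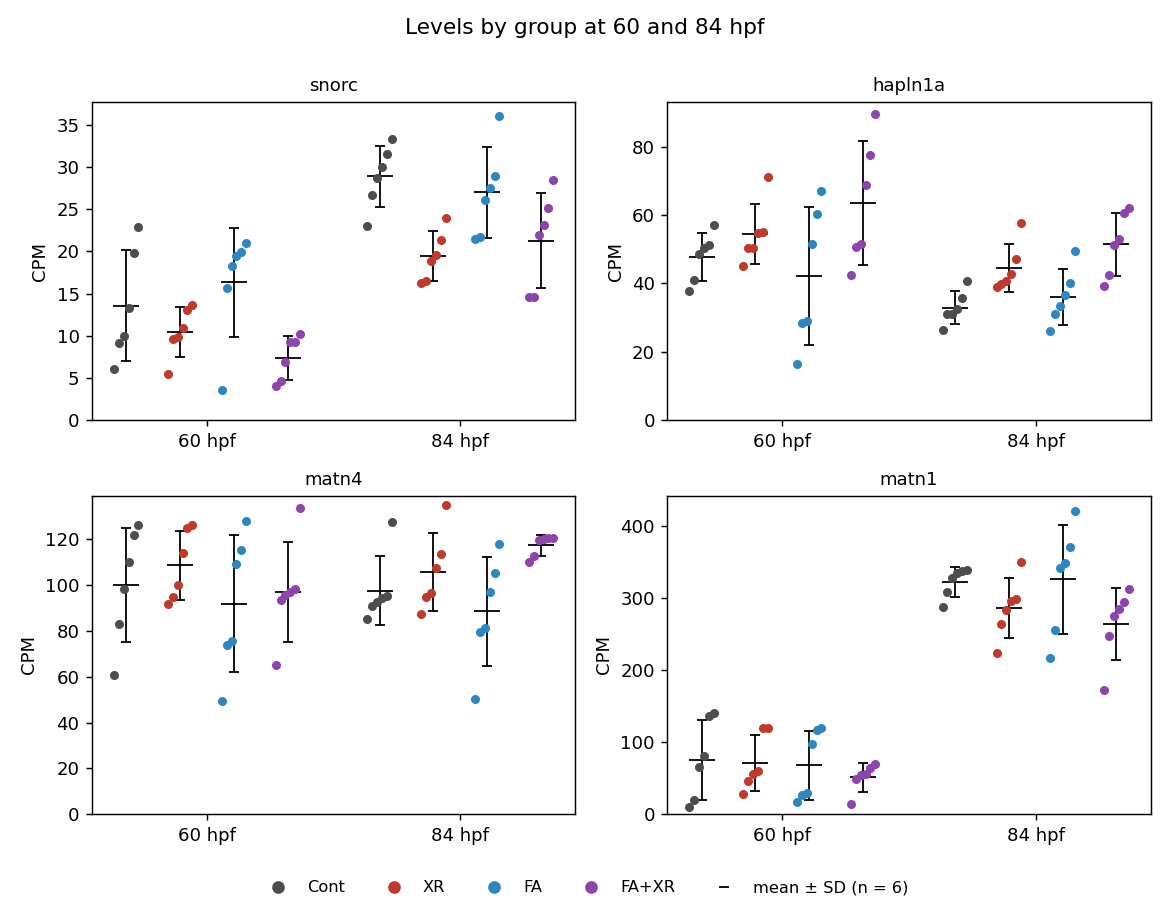
Levels of *snorc*, *hapln1a*, *matn4* and *matn1* in each larva at 60 and 84 hpf, in CPM on linear axes that start at 0, for Cont, XR, FA and FA + XR. Points are libraries, and marks with bars are means ± SD (n = 6). At 84 hpf *snorc* averages 28.9 and 27 CPM in Cont and FA against 19.4 and 21.3 in XR and FA + XR, and *hapln1a* 32.9 and 36.1 against 44.5 and 51.4.

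The other 28 tested members did not pass in irradiated vs. unirradiated at 84 hpf, and each of their 95% intervals lay within 1 on the log2 scale in either direction. In the 2 comparisons that this one averages fewer did, 24 of 30 in XR vs. Cont, with bounds up to 1.83, and 23 of 30 in FA + XR vs. FA, with bounds down to -1.39. *MATN3* ENSDARG00000069245 had opposite signs in them, 1.14 (SE 0.34) and -0.67 (SE 0.30), neither called. The nearest to the threshold were *COL10A1*, at 0.30 (interval 0.09 to 0.51, adjusted p = 0.125 by edgeR), and *matn4*, at 0.26 (interval 0.07 to 0.45, adjusted p = 0.159 by edgeR), both of which DESeq2 called. *matn1* was at -0.23 (interval -0.41 to -0.04, adjusted p = 0.226 by edgeR). For the *COL2A1* gene ENSDARG00000069093 Cont had 102 ± 9.8 CPM, XR 94.7 ± 24, FA 92.2 ± 20.9 and FA + XR 99.2 ± 15.6. At 60 hpf the intervals were wider, and those of 27 of the 29 members not called in irradiated vs. unirradiated lay within 1 on the log2 scale. In XR vs. Cont at 60 hpf 21 of 30 did, with bounds up to 1.87. In FA + XR vs. FA 21 of the 29 not called did, with bounds down to -2.66.

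The effect of irradiation was also compared between ages in the fit of all 96 libraries. No member passed for 84 less 60 hpf, where 0.14% of all genes did, or for 60 less 37 hpf, where 0.637% did. The counts with an unadjusted p under 0.05 were 2 and 3 of 30, and DESeq2 called 0 in both.

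Skeletal muscle genes differed with irradiation at 84 hpf, where 4.32% of all genes were called in irradiated vs. unirradiated. Of 12 tested IDs 9 were higher and 0 lower in irradiated vs. unirradiated larvae, and *ckma*, the muscle creatine kinase, was up by 0.40 (SE 0.07). The summed level of that list ran from 35304 to 45621 CPM for Cont, 34591 to 58486 for XR, 31112 to 44023 for FA and 41894 to 51395 for FA + XR. No ID of the notochord list passed in this comparison, and of 17 tested IDs for other cartilage matrix 0 passed. No ID of the muscle or notochord list was at 0 counts in all 24 libraries of that age. The part of muscle in the values of *hapln1a* and *snorc* was not tested.

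Related pathways were read in the same comparisons. Of 28 tested IDs for proteoglycan synthesis and collagen secretion, 1 was higher and 0 lower in irradiated vs. unirradiated larvae at 60 hpf, where 1.67% of all genes were called. It was *SERPINH1* ENSDARG00000019949, whose product is the collagen chaperone of the endoplasmic reticulum, at 0.36 on the log2 scale (SE 0.10, adjusted p = 0.0731 by edgeR). This ID was also called in XR vs. Cont at 60 hpf, as 0.404% of all genes were, at 0.57 (SE 0.14, adjusted p = 0.0776 by edgeR). For the irradiation effect at 60 less 37 hpf, with 0.637% of all genes called, it was at 0.76 (SE 0.15, adjusted p = 0.00289 by edgeR). Of 18 tested IDs for other matrix of cartilage and perichondrium, 0 were higher and 1 was lower in irradiated vs. unirradiated at 60 hpf. It was *FMOD* ENSDARG00000044895, a small proteoglycan that binds collagen fibrils, at -0.51 (SE 0.12, adjusted p = 0.0239 by edgeR). In FA + XR vs. FA, where 1.43% of all genes were called, *FMOD* was called at -0.62 (SE 0.17, adjusted p = 0.084 by edgeR). At 84 hpf, where 4.32% of all genes were called in irradiated vs. unirradiated, 2 of 20 tested bone IDs were higher and 0 lower. They were *ctsk*, the collagen-degrading protease of osteoclasts, at 0.54 (SE 0.15) and *mmp9*, a matrix protease, at 1.05 (SE 0.33). *ctsk* was also called in XR vs. Cont at 84 hpf, at 0.80 (SE 0.21, adjusted p = 0.047 by edgeR), as were 1.69% of all genes. In FA + XR vs. Cont at 84 hpf, with 1.92% of all genes called, 2 of the 28 IDs for collagen secretion were higher and 0 lower. They were *P4HA1*, a subunit of the collagen prolyl hydroxylase, at 1.01 (SE 0.27) and *SERPINH1* ENSDARG00000075954 at 0.53 (SE 0.15). Of 20 bone IDs 1 was higher there, *POSTN* ENSDARG00000104267, the matrix protein periostin, at 0.36 (SE 0.11). No ID passed in the hedgehog, PTHrP and FGF list or in the neural crest and arch list in any of the 7 comparisons at any age.

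In FA vs. Cont 1 member passed at 84 hpf. The *MATN3* gene ENSDARG00000069245 was higher in FA than in Cont, and it was 1 of 4 genes called of 16127 (0.0248%). It measured 4.65 to 6.57 CPM in Cont, and 10.3, 24.3, 29.8, 33.6, 34.1 and 43.2 CPM in FA, so that the groups did not overlap. The log2 fold change was 2.499 (SE 0.33, adjusted p = 4.39e-05 by edgeR, exact permutation p = 0.00216). The call held in all 24 fits without 1 library, with log2 fold changes from 2.37 to 2.63.

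The same gene in XR measured 5.05, 5.41, 9.32, 10.7, 15.5 and 24.6 CPM, and in FA + XR 5.72, 9.11, 18.9, 21.3, 23.9 and 35.4 CPM. The 2 lowest XR larvae and the lowest FA + XR larva were in the range of Cont, and the others were above it. FA + XR vs. Cont gave 1.83 (SE 0.33, adjusted p = 0.000516 by edgeR, exact permutation p = 0.00649), and XR vs. Cont 1.14 (SE 0.34, adjusted p = 0.105 by edgeR). XR vs. Cont was called in 3 of 7 alternatives, with no filter (adjusted p = 0.0196), with only the 12 libraries compared (0.0534) and without libraries of low depth (0.0845). It was also called in 6 of 24 fits that left out 1 library, namely the XR libraries of 4238657 (0.0383) and 2050987 counts (0.0715), the FA + XR libraries of 3440757 (0.0633), 3857260 (0.0784) and 2984685 counts (0.0923), and the FA library of 680281 counts (0.0795). Over the 24 fits the log2 fold change in XR vs. Cont ran from 0.74 to 1.32 (adjusted p from 0.0383 to 0.505 by edgeR). The comparisons of FA, FA + XR and XR with Cont share the Cont larvae, which were the tightest group, at 5.46 ± 0.72 CPM. No member passed in XR vs. FA + XR (0.0062% of all genes called), where *MATN3* was at -0.69 (SE 0.32) and 1 member had an unadjusted p under 0.05. None passed in the interaction (0% of all genes), where *MATN3* was at -1.81 (SE 0.46, adjusted p = 0.682 by edgeR) and 2 members had an unadjusted p under 0.05. DESeq2 called 0 members in both.

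At 60 hpf *MATN3* ENSDARG00000069245 did not separate the groups, Cont having 39.8 ± 8.9 CPM, XR 42.4 ± 10.3, FA 39.9 ± 14.4 and FA + XR 35.2 ± 7.6. The ratio of mean CPM at 84 hpf to that at 60 hpf was 0.137 (Cont), 0.278 (XR), 0.733 (FA) and 0.542 (FA + XR). The change in the FA effect from 60 to 84 hpf was tested after these levels had been seen. It was 2.43 on the log2 scale (SE 0.48, adjusted p = 0.00635 by edgeR) for *MATN3*, the single member called, while 1.92% of all genes were.

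**Figure D5:**
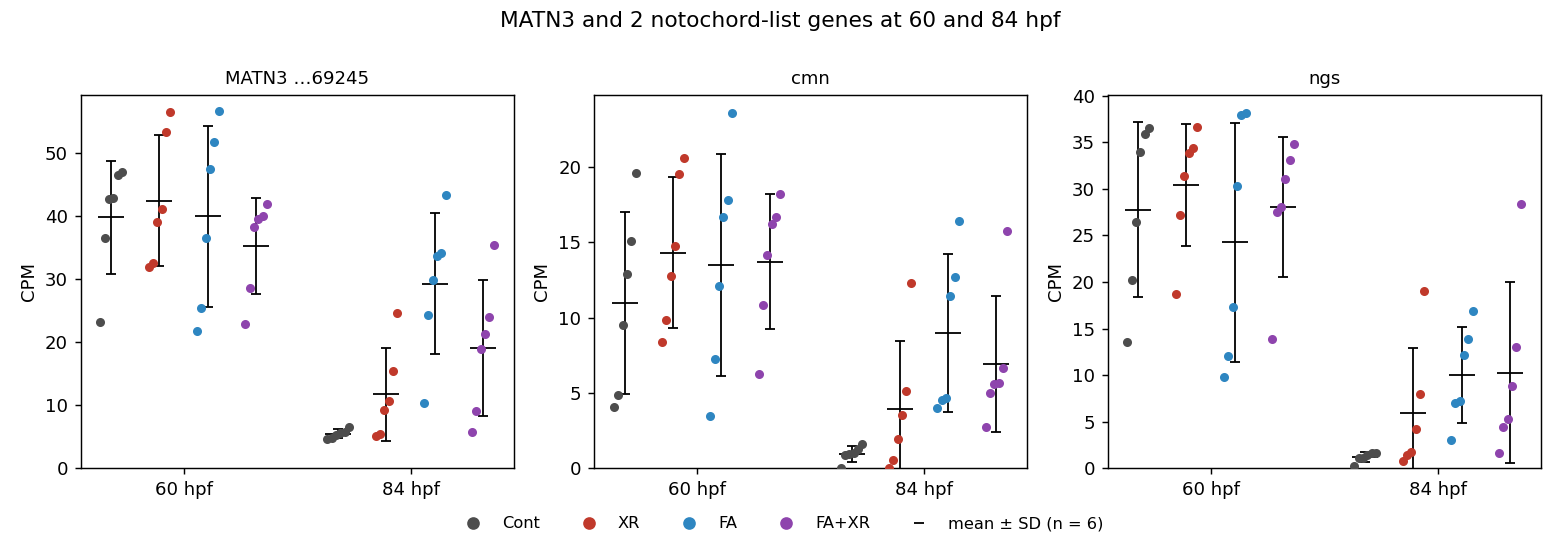
Levels of *MATN3* ENSDARG00000069245 and of *cmn* and *ngs*, from the notochord list, in each larva at 60 and 84 hpf for Cont, XR, FA and FA + XR, in CPM on linear axes. Points are libraries, and marks with bars are means ± SD (n = 6), with bars ended at 0. At 84 hpf the 6 Cont larvae lie close together at the bottom of each panel, and at 60 hpf the groups overlap.

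The other genes called in FA vs. Cont at 84 hpf were *cmn*, *ngs* and *zgc:113232*, the last named here because so few were called. *cmn* and *ngs*, of the notochord list, were higher by 3.25 (SE 0.54) and 3.13 (SE 0.58) on the log2 scale. *cmn* averaged 0.96 ± 0.54 CPM in Cont and 8.97 ± 5.24 in FA, and *ngs* 1.20 ± 0.52 and 10.03 ± 5.14. Between 60 and 84 hpf in Cont *ngs* fell by 4.44 (SE 0.49) and *cmn* by 3.44 (SE 0.50). Both were also called in XR vs. Cont, at 2.21 (SE 0.60, adjusted p = 0.0561 by edgeR) for *ngs* and 2.06 (SE 0.56, adjusted p = 0.0551 by edgeR) for *cmn*. In XR *ngs* averaged 5.89 ± 6.98 CPM and *cmn* 3.92 ± 4.53. Each was highest in the XR library of 3425200 counts, at 19.1 CPM for *ngs* and 12.3 for *cmn*. FA + XR vs. Cont was called too, at 3.07 (SE 0.57) for *ngs* and 2.77 (SE 0.53) for *cmn*. These comparisons share the Cont larvae too. Of 14 tested IDs of the notochord list those 2 passed in FA vs. Cont. The list was chosen with earlier results of these data known, so this count is not independent of them. The summed level of its 18 IDs ran from 166 to 189 CPM for Cont, 162 to 246 for XR, 196 to 263 for FA and 187 to 271 for FA + XR. The part of the notochord in the level of *MATN3* was not tested.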

How the data were processed

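RNA of single larvae was sequenced, and the authors quantified it against Ensembl cDNA sequences (build GRCz11) with a tool that is not given in the sources used here. The deposited estimated counts were used as given, except that 3 values that are not whole were rounded. Columns were assigned by the deposited table of library properties, whose totals equal the column sums. They carry no replicate number, so libraries are named by total count. The larvae are separate animals.

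Libraries of an age (24) were fitted together in edgeR 4.0.16 (R 4.3.3, TMM, quasi-likelihood F test, Benjamini-Hochberg). Ages, and changes of an effect between ages, were fitted over all 96. Genes needed a mean count of 2.5. The SE is the log2 fold change divided by the square root of F. CPM use TMM factors over 96 libraries, and log2 CPM a prior count of 2. Alternatives were DESeq2 1.42.0, RLE factors, no filter, filterByExpr, only the 12 libraries compared, a threshold of 5%, libraries of low depth or single libraries left out, and a prior count of 0.5. The scripts were tested on simulated data. All members are named where called by edgeR, and the others by counts. Up to 3 genes of other lists are named. The members and lists were chosen with earlier results of these data known. Gene lengths were not used, so levels are not compared between genes.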

Additional observations from a re-analysis of the deposited data

Results flagged for a closer look

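Among 176 sets of 6 libraries (11 members in 16 groups) 14 had a library far from the others by Dixon's criterion, and chance gives about 1 in 20. The FA + XR library of 243126 counts at 37 hpf held 4 of them. It had *matn1* at 31.6 CPM (next 5.43), *MATN3* ENSDARG00000069245 at 47.4 CPM (next 16), *COL10A1* at 23.7 CPM (next 8.39) and *mia* at 0 CPM (next 16.8), from 16, 24, 12 and 0 counts.

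At 37 hpf the *COL2A1* gene ENSDARG00000069093 was 4.40 CPM in the Cont library of 648296 counts (3 counts), and *COL10A1* was 8.79 CPM in an FA library. At 60 hpf the FA library of 5295573 counts stood above its group for *COL2A1* ENSDARG00000011407 (109 CPM, next 50.2) and *mia* (29.4 CPM, next 15.1). The FA + XR library of 3559535 counts stood below its group for *COL9A1* (10.1 CPM, next 27.6) and *cnmd* (40.4 CPM, next 86.4). *COL10A1* was 17.6 CPM in the Cont library of 1100461 counts (next 45.8), and *snorc* was 3.63 CPM in the FA library of 767872 counts. At 84 hpf *cnmd* was 77.5 CPM in the XR library of 700645 counts (next 106), and *epyc* was 59.4 CPM in the XR library of 3425200 counts (next 43.6).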

How the results depend on the processing

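Of the 21, 7 and 19 members higher in Cont between 37 and 60, 60 and 84, and 36 and 84 hpf, 19, 6 and 19 kept the call in all 6 alternatives run, and of the 3, 2 and 4 lower, 2, 1 and 2 did. No called member changed sign. For the treatments, DESeq2 gave 1 called member in XR vs. Cont at 37 hpf, 2 in FA + XR vs. FA and 2 in FA vs. Cont at 60 hpf, and at 84 hpf 2 in XR vs. Cont and 4 in irradiated vs. unirradiated. FA + XR vs. FA at 60 hpf gave 0 at a threshold of 5%, 0 with only the 12 libraries and 2 without libraries of low depth. Leaving those out gave 1 in FA + XR vs. Cont at 60 hpf, and at 84 hpf 2 in XR vs. Cont and 1 in FA + XR vs. FA. At that age XR vs. Cont gave 1 with no filter, 1 with filterByExpr and 2 with only the 12 libraries. With no filter the interaction at 84 hpf gave 1, *MATN3* ENSDARG00000069245 (adjusted p = 0.0317 by edgeR). The causes were not tested.

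Without single libraries, counts at 60 hpf ran from 0 to 2 in FA + XR vs. FA and FA vs. Cont and from 0 to 1 in irradiated vs. unirradiated. At 84 hpf they ran from 0 to 2 in XR vs. Cont, from 0 to 1 in FA + XR vs. FA, from 2 to 4 in irradiated vs. unirradiated, from 2 to 2 in FA + XR vs. Cont and from 1 to 1 in FA vs. Cont. At 60 hpf XR vs. Cont, FA + XR vs. Cont, XR vs. FA + XR and the interaction stayed from 0 to 0, as did the last of these and XR vs. FA + XR at 84 hpf. No paired analysis was possible because the count columns carry no replicate number. Of 24 libraries at 37 hpf 6 were shallow, and leaving them out kept 0 called members in all 7 comparisons.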
